A study of Mus musculus with 2 samples.

Results

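The peaks described here lay over the genes of 3 nuclear or nucleus-derived non-coding RNAs of the mouse, Malat1, Mascrna and Neat1, and over the stretches next to them on chromosome 19. They came from a ChIRP-seq experiment on endogenous miR-9, a microRNA best known for repressing mRNAs in the cytoplasm, in MLg cells (ATCC CCL-206), a fibroblast line from mouse lung. In ChIRP (chromatin isolation by RNA purification) RNA is crosslinked to chromatin with formaldehyde, fished out with biotinylated oligonucleotides, and the DNA that comes with it is sequenced. There was 1 library of the miR-9 capture and 1 library of the input chromatin, both from MLg cells with no other treatment named, and no library of a control probe was analysed here. The question behind the experiment was where miR-9 sits on chromatin.

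Of the 17922 peaks called in the miR-9 capture over the input, 6 were chosen by their deposited gene name, with 2 peaks each named Malat1, Mascrna and Neat1. A second criterion, a start inside a window of 70001 bases around the genes, was met by 5 of these 6 and by no other peak. The gene names and positions of called peaks thus selected the members, so that the presence of peaks here is a description and not a finding. The same list gave no enrichment value, read count or p-value for any peak. With 1 library per group no difference could be tested, and every value below describes this 1 list.

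Malat1 is a long non-coding RNA (lncRNA) that is very abundant and collects in nuclear speckles, bodies rich in splicing factors. Its primary transcript is cut near its 3′ end by RNase P, which leaves a tRNA-like small RNA, Mascrna, that RNase Z trims and that leaves for the cytoplasm. Neat1 is the lncRNA scaffold of another nuclear body, the paraspeckle. It has a short, polyadenylated isoform and a long isoform, and only the long one is needed to build paraspeckles. Human MALAT1 RNA has been described as a target of miR-9 inside the nucleus. All 3 genes are transcribed from the minus strand, so that Neat1 lies upstream of Malat1, and positions within a gene are counted from 1 at its start.

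The sequences that frame the results are the mature microRNA and the processed 3′ ends of both lncRNAs. Mature miR-9-5p, from the RefSeq table, is shown with its seed (bases 2 to 8) in capitals. The last 60 bases before each small RNA are shown with the small RNA in capitals, from GRCm38.p6, the assembly behind mm10, on the minus strand. Mascrna is annotated by RefSeq at chr19:5795924-5795981, and Gm27702, a small RNA of GENCODE that follows the annotated end of Neat1 directly, at chr19:5824652-5824707.
miR-9-5p mature: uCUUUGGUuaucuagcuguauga
Malat1 end and Mascrna: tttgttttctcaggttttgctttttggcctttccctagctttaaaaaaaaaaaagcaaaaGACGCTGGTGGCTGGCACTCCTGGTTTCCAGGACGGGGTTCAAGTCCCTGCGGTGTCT
Neat1 end and Gm27702: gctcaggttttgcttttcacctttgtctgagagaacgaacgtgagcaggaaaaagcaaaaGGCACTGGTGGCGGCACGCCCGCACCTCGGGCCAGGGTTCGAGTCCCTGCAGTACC
The small RNAs matched in 40 of 58 aligned columns (69.0%). A run of 12 A in Malat1 and of 5 A in Neat1 ended 6 bases before the small RNA. These 2 ends, alike in layout, differed in the peak list, as Mascrna lay whole under a peak while Gm27702 was 15207 bases from the nearest one, the CA repeat peak, and 17008 bases from the nearest peak in Neat1.

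In the direction of transcription, the 6 peaks began with a narrow one near the start of Neat1, at chr19:5845063-5845196 (134 bases, deposited as non-coding exon of Neat1). A wider one followed over the end of the short Neat1 isoform, at chr19:5841716-5842671 (956 bases, deposited as a termination site). The gap between the genes held 1 peak, a CA repeat at chr19:5809304-5809444 (141 bases, intergenic, named Malat1). Malat1 itself lay under a pair of wide peaks, a 5′ one at chr19:5799531-5802335 (2805 bases, exon 1 of 1 of Malat1) and a 3′ one at chr19:5794394-5798662 (4269 bases, deposited as a promoter of Mascrna). The last peak lay downstream of Malat1, at chr19:5786397-5786938 (542 bases, intergenic, named Mascrna). It lay 8751 bases beyond the Malat1 end. The pair over Malat1 made up 7074 of the 8847 bases of all 6 (79.96%).

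**Figure D1:**
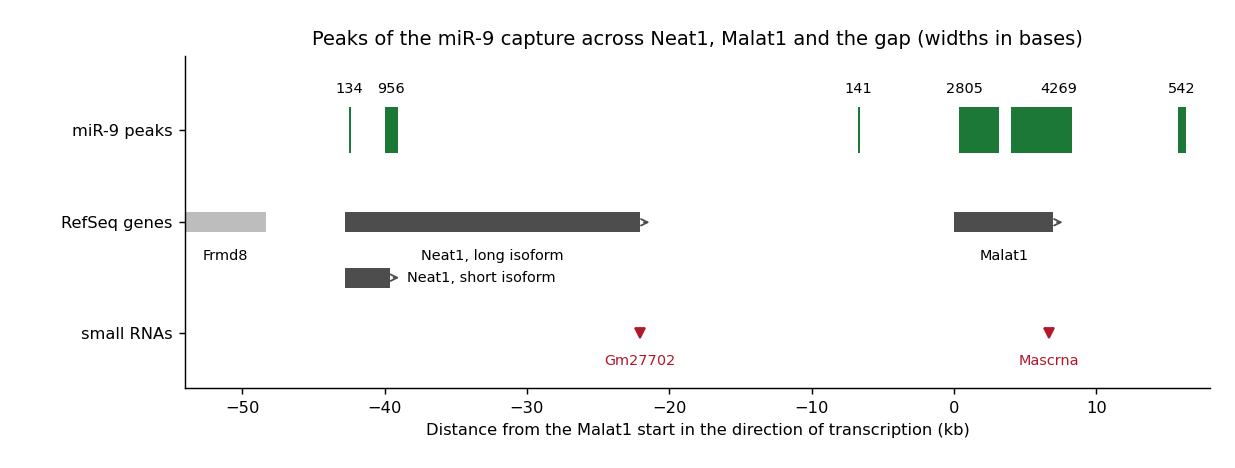
The 6 peaks (green, with widths in bases), the RefSeq genes and the small RNAs Gm27702 and Mascrna along the locus, against the distance in kb from the Malat1 start in the direction of transcription. The pair of 2805 and 4269 bases lies over Malat1, and the long isoform of Neat1 is empty beyond the peak of 956 bases.

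The distance to the nearest start that HOMER had given each peak was met within 1 base for 6 of 6 peaks by the RefSeq annotation used here, and for 96.7% of all peaks whose transcript was found in it. Of the 6 peaks, the downstream one lay just outside the window and was chosen by its name alone. The nearest peaks with other gene names lay at promoters. On the side of the Neat1 start the next peak was 31587 bases away, at chr19:5876784-5876946 (163 bases), 854 bases upstream of the start of Slc25a45, a mitochondrial carrier gene. On the far side of the downstream peak the next one was 96455 bases away, at chr19:5689329-5689941 (613 bases), near the start of the kinase gene Map3k11. Frmd8, the gene upstream of Neat1, had no covered base over its 24296 bases.

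Malat1 was covered over 5778 of its 6983 bases, or 82.7%, with peaks. Chromosome 19 as a whole was covered over 0.483%, which makes the share of Malat1 171-fold as high. Only 2 stretches of the transcript were free, the first 337 bases and positions 3143 to 4010 in the middle. Of 10 equal parts of the transcript, 7 were covered in full, the first over 51.7%, the fifth over 50.0% and the sixth over 25.6%. The 5′ peak took positions 338 to 3142, and the 3′ peak took position 4011 to the end. The 5′ peak also covered 87.2% of Gm37376, a GENCODE gene model on the opposite strand at chr19:5801941-5802393, and the peak list does not tell strands apart.

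The 3′ peak of Malat1 ran past the transcript. Of its 4269 bases, 2973 lay inside Malat1 and 1296 beyond the annotated end. It held the whole of Mascrna (58 bases, positions 6692 to 6749), with 2681 bases before the small RNA and 1530 after it. The deposited table names this peak after Mascrna because its centre is closest to the start of that gene, 547 bases upstream of it. With peaks counted only where the deposited gene name is Malat1, the covered share of Malat1 was 40.2%.

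The annotated end of Malat1 thus lay under a peak and its start did not, and for Neat1 neither end did. Both lncRNAs were free of peaks at the start of the transcript, over 337 bases in Malat1 and 284 in Neat1. Among 32752 genes of at least 2 kb, 0.592% had their end and 0.977% their start under a peak.

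The uncovered 868 bases in the middle of Malat1 were a short gap. Of the 698 gaps between neighbouring peaks on chromosome 19, 35 (5.01%) were this short or shorter, and of 17901 gaps on all chromosomes 678 (3.79%) were. The median gap was 46535.5 bases on chromosome 19. The GC content inside Malat1 was 44.0% under the 5′ peak and 42.5% under the 3′ peak, against 39.2% in this stretch. All of the stretch's 32-base words occurred once in the assembly. It holds Gm27694, a GENCODE RNA of 86 bases without a covered base.

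In width, the pair over Malat1 stood near the top of the list. The 3′ peak ranked 34th of 17922, with 0.190% of peaks at least as wide, and the 5′ peak ranked 86th (0.480%). The peak at the end of the short Neat1 isoform ranked 651st (3.65%), and the downstream peak ranked 6030th. The peaks at the Neat1 start and at the CA repeat were narrow, under 250 bases, at ranks 15509 and 14885. The median of all peaks was 408 bases.

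**Figure D2:**
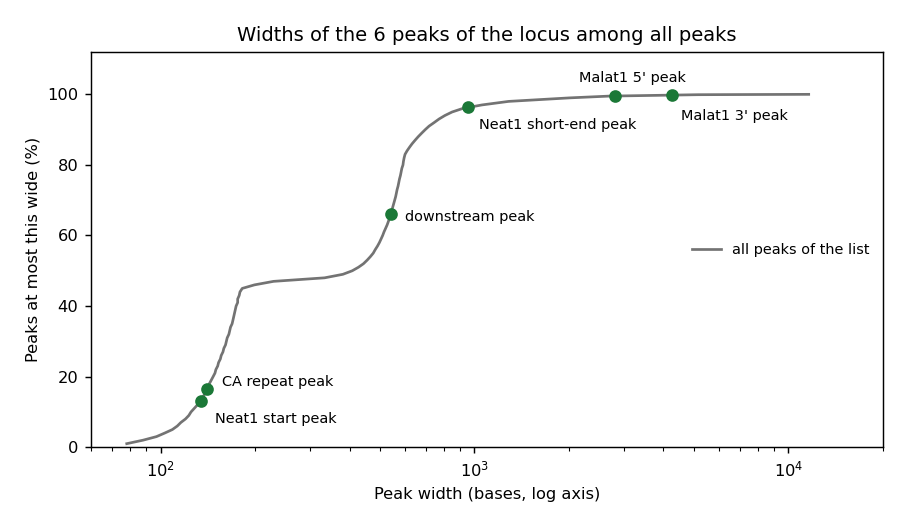
Cumulative share of all 17922 peaks (%) against peak width (bases, log axis), with the 6 peaks of the locus as points. The pair over Malat1, of 4269 and 2805 bases, sits at the upper end of the curve, while the peaks at the Neat1 start and the CA repeat sit near its foot.

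Among genes of at least 2 kb, 19.5% were overlapped by any peak and 0.0733% (24 genes) were covered over at least 50% of their length. Malat1 came 6th of the 32752 by covered share. The 5 genes before it were Gm52481 (100%), Gm33272 (98.1%), Erdr1 (91.1%), the retinol dehydrogenase gene Rdh5 (87.8%) and the ring finger gene Rnf151 (84.4%). Gm52481 and Gm33272 lie on chromosome Y and Erdr1 on chromosome X. Of the 24 genes, 4 were lncRNAs, Malat1 among them. Only 1253 of 11269 lncRNA genes of this size had a peak at all (11.1%), with a median of 1.39% covered in those that did.

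Neat1, the longer gene, was covered over 1090 of its 20773 bases, or 5.25%. This was 10.9-fold the share of chromosome 19, and placed it 703rd of 32752 genes (2.15%). All of the cover lay within its first 3765 positions. The short isoform (3185 bases) was covered over 510 bases (16.0%), and the 17588 bases found in the long isoform alone over 580 (3.30%). From position 3766 to the end, 17008 bases (81.9% of the gene) were free.

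**Figure D3:**
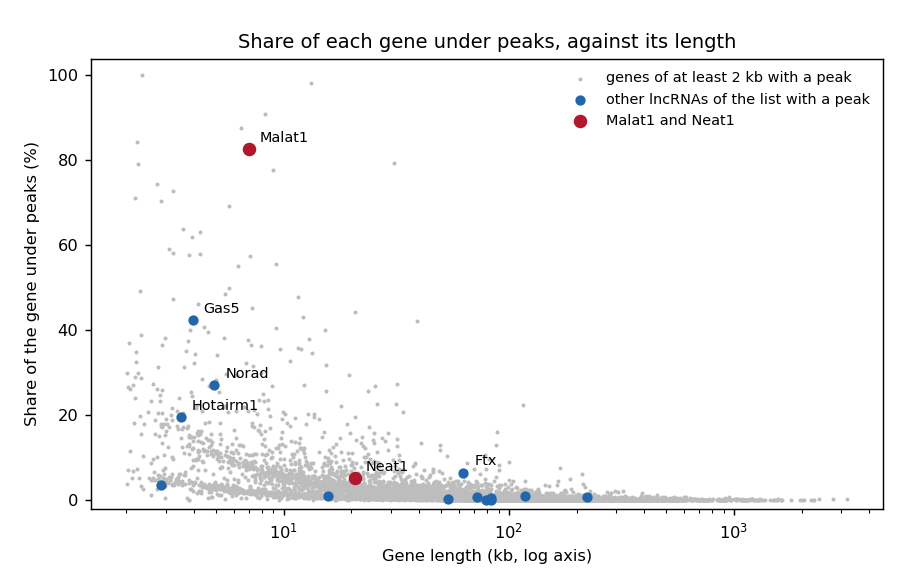
Share of each gene under peaks (%) against gene length (kb, log axis) for genes of at least 2 kb with a peak (grey), the listed lncRNAs with a peak (blue), and Malat1 and Neat1 (red). Malat1, at 82.7%, stands among the few genes above 50%, and Neat1, at 5.25%, lies within the grey cloud.

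The wider Neat1 peak straddled the place where the isoforms part. It took positions 2810 to 3765, with 376 bases inside the short isoform and 580 beyond its end. The last 60 bases of the short isoform, chr19:5842296-5842355 on the minus strand of GRCm38.p6, lay inside this peak and are shown because the isoforms part here, with the polyadenylation signal AATAAA in capitals.
Neat1 short isoform end: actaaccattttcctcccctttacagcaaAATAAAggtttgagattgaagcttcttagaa
The signal ended 25 bases before the isoform's end. On the minus strand of chromosome 19, 4.45% of adjacent stretches of 60 bases hold these letters.

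The narrow Neat1 peak lay at positions 285 to 418, in both isoforms, and is shown whole as the most GC-rich of the 6, from the minus strand.
Neat1 start peak: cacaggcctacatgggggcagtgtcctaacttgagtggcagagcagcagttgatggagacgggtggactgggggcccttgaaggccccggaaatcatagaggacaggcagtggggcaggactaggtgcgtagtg
Its GC content was 60.4%, against a median of 42.2% over all peaks. Both Neat1 peaks consisted of single-copy sequence, as 100% of their 32-base words occurred once in the assembly. Between them 2391 bases were free. The GENCODE RNAs Gm27505, Gm27533 and Gm28006, which lie in that stretch, had no covered base.

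The gap between the end of Neat1 and the start of Malat1 (22035 bases) was covered over 141 bases, or 0.640%, which was 1.33-fold the share of chromosome 19. Those 141 bases were the CA repeat peak, 6631 bases upstream of Malat1 and 15263 bases beyond Neat1. It is shown from the minus strand with the alternating run of TG in capitals.
CA repeat peak: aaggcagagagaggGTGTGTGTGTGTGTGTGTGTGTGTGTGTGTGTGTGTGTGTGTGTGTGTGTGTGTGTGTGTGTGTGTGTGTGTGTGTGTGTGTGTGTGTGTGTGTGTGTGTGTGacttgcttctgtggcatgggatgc
The run took 103 of the 141 bases (73.0%). Over the whole peak, flanks included, 15.5% of the 32-base words were unique, and the most frequent word occurred 1039301 times in the assembly, so reads here cannot be placed with certainty. Of all peaks, 702 (3.92%) were annotated as CA or TG repeats, with a median width of 222 bases. The remaining peaks of the locus were mostly unique, with 93.0% single-copy words in the 3′ peak, 95.6% in the 5′ peak and 97.8% in the downstream peak. Within the 3′ peak this share was 98.6% inside Malat1 and 79.7% beyond its end.

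Taken as a window of 70001 bases, the locus was covered over 8305 bases (11.9%, or 24.6-fold the share of chromosome 19). Of 38926 adjacent windows of that length in the genome, 31.4% held any peak, and 24 (0.0617%) were covered as much or more. At least 5 peaks stood in 239 windows (0.614%). The median window was covered over 0 bases.

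Short matches to miR-9-5p were searched as its 16 words of 8 bases, taken in order from the mature sequence printed above and read on both strands, with overlapping words joined. The 6 peaks held 4 matches, or 0.452 per kb, against 0.826 per kb in all peaks and 0.462 per kb along chromosome 19. The window outside its peaks held 0.162 per kb. Of all peaks, 26.4% held such a word. Among the 86 peaks at least as wide as the 5′ peak, 68 (79.1%) held one. The 4 matches lay in 3 of the 6 peaks, with 2 in the 5′ peak of Malat1 and 1 each in the wider Neat1 peak and the downstream peak. These differences in rate were not tested. No word of 10 bases was found, at a rate of 0.152 per kb in all peaks.

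Within the RNAs, the matches ran both ways. An RNA that reads like miR-9 can pair with a probe against miR-9, and an RNA complementary to it can pair with miR-9 itself, and no pairing was measured here. Malat1 had 2 matches, both under the 5′ peak and both reading like miR-9, to bases 2 to 9 of miR-9 at position 2529 and to bases 15 to 22 at position 1790. Neat1 had 4, of which the 3 that read like miR-9 lay outside its peaks, at positions 12782, 16335 and 18458. The fourth, complementary to bases 7 to 15 and 9 bases long, began at position 2903, under the peak at the end of the short isoform. Peaks covered 82.7% of Malat1 and 5.25% of Neat1, so most matches in Malat1 would lie under a peak wherever they fell. The downstream peak, deposited as intergenic, held 1 match, complementary to bases 2 to 9 when read on the minus strand. The matches under peaks are given on the minus strand, with matching bases in capitals and 8 bases on either side.
Malat1 position 2529: cagtgcggCTTTGGTTcacagtca
Malat1 position 1790: tatctgggGCTGTATGtaggcctt
Neat1 position 2903: tcatcttaCTAGATAACactttgta
Downstream peak: ctctgaacAACCAAAGgcaaataa

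The usual seed match of microRNA targets, ACCAAAG, pairs with bases 2 to 8 of miR-9-5p. Malat1 RNA held 1, at positions 5912 to 5918 under the 3′ peak, and Neat1 RNA held 0 in its 20773 bases. This made 0.143 per kb in Malat1, against 0.104 per kb and strand on chromosome 19. The site is given on the transcribed strand with the match in capitals, and the base after it, opposite base 1 of miR-9, is not an A.
Malat1 seed match: gtatcgagACCAAAGtggtatca

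**Figure D4:**
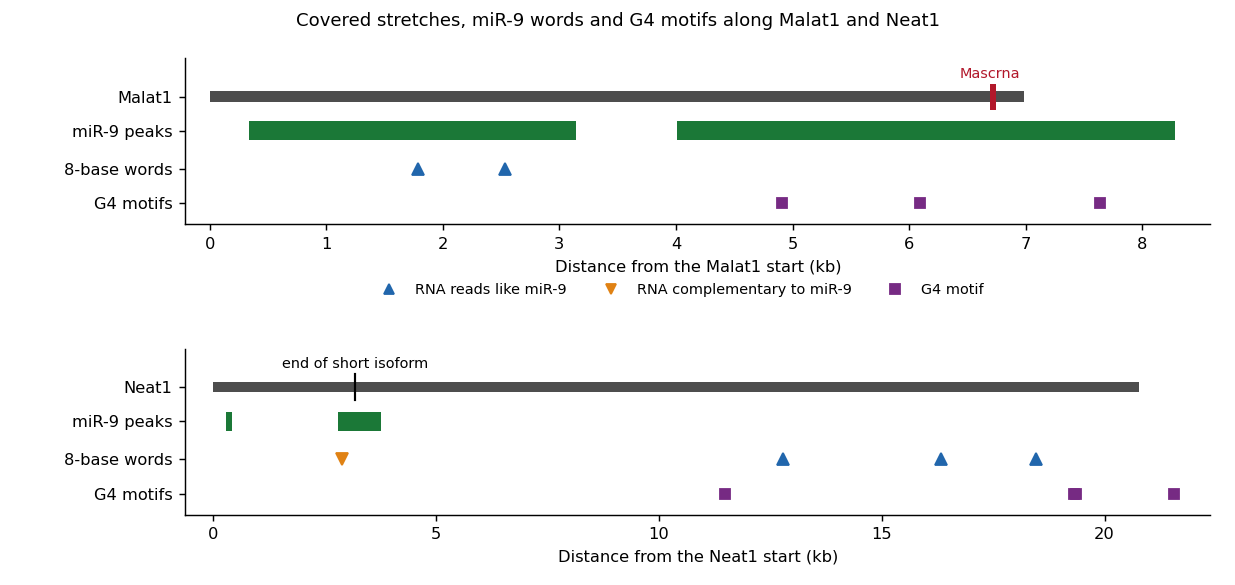
Malat1 (top) and Neat1 (bottom) with the peaks over them (green), the 8-base matches to miR-9 by orientation (triangles) and G4 motifs (squares), against the distance in kb from each gene's start. Peaks cover 82.7% of Malat1 and 5.25% of Neat1. Both matches in Malat1 lie under the 5′ peak and its G4 motifs under the 3′ peak. In Neat1 1 of 4 matches and none of the G4 motifs lies under a peak.

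G-quadruplexes (G4) are 4-stranded structures of guanine-rich DNA or RNA, and the motif searched on both strands had 4 runs of 3 or more G, parted by loops no longer than 7 bases. The 3′ peak of Malat1 held all 3 motifs found in the 6 peaks, or 0.339 per kb, against 0.224 per kb in all peaks and 0.247 per kb on chromosome 19. The window of the locus, outside its peaks, held 0.308 per kb. These rates were not tested. Of all peaks, 5.65% held a motif, but their median width was 408 bases, against 4269 in the 3′ peak. The gap between Malat1 and Neat1 held 10 motifs, or 0.454 per kb. Of the 3 in the 3′ peak, 2 had their G runs in Malat1 RNA and 1 had them on the plus strand beyond the Malat1 end. The pair in the RNA is printed on the transcribed strand, all bases being part of the motif.
Malat1 G4 motif at chr19:5797749-5797765: GGGAGGGGGGGATGGGG
Malat1 G4 motif at chr19:5796558-5796582: GGGGAGGGAAAAGGGGGAAAGCGGG

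The other listed lncRNAs had less cover than Malat1. A list of 24 well-studied lncRNAs was used that includes Malat1 and Neat1 themselves, and of which some, such as Norad, work largely in the cytoplasm. After Malat1 (82.7%), the highest shares were those of the snoRNA host gene Gas5 (42.4%), Norad (27.1%), Hotairm1 (19.6%) and Ftx (6.56%), followed by Neat1 (5.25%). Xist, the RNA that coats the inactive X chromosome, had no covered base, as had 9 of the 24 in all. A peak centre within 2 kb of a start was found for 5 of the 24 (20.8%), against 3.81% of all lncRNA genes. Malat1 and Neat1 are among the 5 and were selected with their peaks, so this share is no finding. Without Malat1 and Neat1 the count was 3 of 22 (13.6%), with Gas5, the snoRNA host Snhg1 and Pvt1, which lies beside Myc. The distances were 349 bases for Neat1 and 1739 bases for Malat1.

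Genes for proteins of the nuclear bodies in which these RNAs are found were looked up in the same way, and intervals given here cover counting error only. Of 16 paraspeckle protein genes, 5 had a peak centre within 2 kb of a start (31.2%, 11.02 to 58.7%), against 7.61% of all protein-coding genes and 5.58% of all genes. They were Hnrnph3 (290 bases downstream of its start), Taf15 (659 bases) and Rbmx (1004 bases), and Nudt21 (166 bases upstream) and Dazap1 (571 bases upstream), all of which encode RNA-binding proteins. Nono, Sfpq and Pspc1, which encode core paraspeckle proteins, had none within that distance. Nono held a peak of 182 bases, 12543 bases downstream of its start. Sfpq and Pspc1 had no covered base, and the nearest peak of Sfpq lay 10216 bases upstream. Of 18 nuclear speckle protein genes, 3 had one (16.7%, 3.58 to 41.4%), the splicing factors Srsf5, Srsf7 and Rbm25. Of 13 genes for the enzymes and binding proteins of the Malat1 3′ end, such as the RNase P subunits and the RNase Z gene Elac2, 0 had one, which allows a share of up to 24.7%. No test of these lists was made, and the lists were chosen with earlier results of these data known. An interval that leaves out the share over all genes is therefore no finding.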

How the data were processed

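The processed file was the list of peaks of the miR-9 ChIRP library over the input, both from MLg cells. Per the labels and methods, the authors trimmed reads with Trimmomatic (version 0.36), aligned them to mm10 with Bowtie2, called peaks with MACS at an uncorrected p-value and more than 1 fragment shift, merged them with bedtools and annotated them with HOMER. The labels name probes for mature miR-9 or a control, without probe sequences, and the title of this library names miR-9, whereas the ChIRP paragraph of the methods names another microRNA. The deposited score was 0 in every peak, so depth and enrichment were unknown. Annotation broken over several fields in 8093 peaks was rejoined.

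Positions are those of mm10, and sequence and RefSeq genes those of GRCm38.p6, with GENCODE for small RNAs. Covered shares, words of miR-9-5p, G4 motifs and copies of 32-base words were computed in Python 3.11.15 with numpy 2.4.6, scipy 1.17.1 and Biopython 1.88, and the functions were tested on simulated data. Words and motifs were counted on both strands.

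Members and lists were chosen with earlier results of these data known. Named genes were the members, the genes in and beside the window, list genes with a peak within 2 kb and the 5 most covered genes. Some genes under this rule are not reported here. Gas5 aside, other lncRNAs, the core paraspeckle proteins and Elac2 were named after their values were seen. Alternatives changed peak width, gene span, window, word, loop and distance. No replicate allowed a test.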

Additional observations from a re-analysis of the deposited data

How the results depend on the processing

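The covered share of Malat1 was 64.4% with the gene extended by 2 kb at both ends and 40.2% with peaks of its own name only, against 82.7%. That of Neat1 was 4.60% with peaks wider than 250 bases and 4.40% with the extension, against 5.25%. Windows covered at least as much as the locus were 1.85% with the shorter window (35001 bases), which holds 2 peaks of the locus and leaves out Malat1, and 0.159% with the longer one (140001 bases). Genes covered at least as much as Neat1 were 1.99% among genes of at least 5 kb and 1.85% among non-coding genes. Matches to miR-9 in the 6 peaks numbered 13 with words of 7 bases, 1 with 9 and 0 with 10. With 9 bases the 6 peaks held 0.113 per kb, against 0.109 per kb on chromosome 19, so this order turned. With 7 bases they held 1.47 per kb, against 1.82 per kb in the window outside its peaks, which also turned the order. The uncovered stretch in the middle of Malat1 then held 4.61 per kb, against 1.27 per kb in the Malat1 peaks. With loops of up to 12 bases, G4 motifs stood at 0.452 per kb in the 6 peaks. The window outside its peaks held 0.648 per kb, so this order turned too. Any overlap with a peak was found for 9 of 16 paraspeckle protein genes and 9 of 18 nuclear speckle protein genes. It was found for 15 of 24 lncRNAs, Malat1 and Neat1 included, and for 3 of 13 genes of the 3′ end list. Among genes of at least 2 kb, 19.5% were overlapped by a peak, and among lncRNA genes of that size 11.1%. A peak centre within 5 kb of a start was found for 7 of 18 nuclear speckle protein genes. It was found for 9 of 24 lncRNAs, Malat1 and Neat1 included. The share over all genes was not counted at that distance, so whether these counts are high cannot be judged. The other 11 alternatives, the longer G4 loops among them, were counted as unchanged, though no replicate gives a spread to judge this by. They include 4 peaks in place of 6 with only peaks wider than 250 bases, or with only peaks overlapping Malat1 or Neat1.

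No paired analysis was possible because each group had 1 library, and for the same reason leaving out a replicate was not possible. Peaks rest on 1 capture without a control probe, on an uncorrected p-value, and on widths that the merging of calls can enlarge. Depth was unknown, so an uncovered stretch shows only that no peak was called there. Reads in repeats cannot be placed with certainty.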
